A study of Mus musculus with 6 samples.

Results

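The genes described here are 10 heat shock protein genes of the cytosol and the mitochondrial matrix, taken by gene name from a table of 51912 mouse genes. They are Hspb1, Hspa1a, Hspa1b, Hspa8, Hsp90aa1, Hsp90ab1, Dnajb1, Hsph1, Hspd1 and Hspe1, and all 10 had a row. RNA was sequenced in 6 libraries of B16F10, a pigmented mouse melanoma cell line. The A10KO group held 3 libraries with the genotype ANXA10-/- (replicates 1, 13 and 14, numbered as in the labels), and the WT group held 3 libraries of wild-type B16F10 (replicates 1, 2 and 3). No treatment is named for either group. The labels do not say whether a replicate is a clone, a culture or a repeated preparation, so a p-value measures no more than how far these libraries lie from each other, and that spread can be technical.

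Heat shock proteins are chaperones that keep other proteins folded. In the cytosol a substrate is usually passed from a J-domain protein to HSP70, which cycles with the help of exchange factors, and then to HSP90 for late folding steps, while small heat shock proteins hold unfolded chains. HSP60 and its lid HSP10 fold proteins inside the mitochondrial matrix. Under stress, heat shock factor 1 binds promoter elements built from repeats of GAA and its complement TTC and raises the inducible members, whereas other members are made at high levels at all times.

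Promoter sequences are shown first because they hold such elements. RefSeq windows on GRCm38.p6, 300 bases from 250 before to 50 after a start, were found for 7 of the 10 genes. Hspa8, Hsp90aa1 and Hsp90ab1 were not matched. Below are the bases before the start for the member whose levels stood farthest apart between the groups (Hspb1, chr5:135887669-135887918, plus strand), for the member with the next largest difference (Hsph1, chr5:149636337-149636586, minus strand), for the near-identical pair Hspa1b (chr17:34959239-34959488, minus strand) and Hspa1a (chr17:34972157-34972406, minus strand), and for the 215 bases between the start of Hspe1 and the one of 2 Hspd1 starts that faces it (chr1:55087933-55088147, plus strand). Capitals mark the pair motifs GAANNTTC and TTCNNGAA, where they overlap as 1 run.
Hspb1: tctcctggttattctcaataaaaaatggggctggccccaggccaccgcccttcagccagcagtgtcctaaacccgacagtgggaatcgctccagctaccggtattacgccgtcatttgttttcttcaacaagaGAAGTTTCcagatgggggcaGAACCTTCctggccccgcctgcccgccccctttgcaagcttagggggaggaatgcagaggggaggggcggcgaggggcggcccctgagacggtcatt
Hsph1: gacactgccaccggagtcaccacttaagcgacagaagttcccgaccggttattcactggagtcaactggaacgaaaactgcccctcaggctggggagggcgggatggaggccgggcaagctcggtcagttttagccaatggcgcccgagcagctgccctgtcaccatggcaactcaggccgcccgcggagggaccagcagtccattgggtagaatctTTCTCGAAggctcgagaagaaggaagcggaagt
Hspa1b: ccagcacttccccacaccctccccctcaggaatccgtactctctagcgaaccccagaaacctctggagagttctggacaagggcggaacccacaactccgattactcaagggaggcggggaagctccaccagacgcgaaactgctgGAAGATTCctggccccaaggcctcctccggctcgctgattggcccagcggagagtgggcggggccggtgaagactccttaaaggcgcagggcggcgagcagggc
Hspa1a: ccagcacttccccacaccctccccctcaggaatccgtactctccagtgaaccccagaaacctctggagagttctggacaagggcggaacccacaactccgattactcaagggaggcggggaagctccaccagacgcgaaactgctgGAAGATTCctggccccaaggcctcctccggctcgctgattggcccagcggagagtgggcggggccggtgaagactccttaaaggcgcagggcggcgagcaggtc
Hspd1-Hspe1: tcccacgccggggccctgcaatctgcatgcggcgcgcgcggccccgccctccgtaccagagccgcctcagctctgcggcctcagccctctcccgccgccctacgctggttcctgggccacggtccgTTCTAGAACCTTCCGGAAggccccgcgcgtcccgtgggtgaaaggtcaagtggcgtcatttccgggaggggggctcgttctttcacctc

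Some genes have more than 1 start, and the 7 genes had 10 windows. A pair motif was present in 7 of these 10 windows, and in 15.1% of all 32851 RefSeq promoter windows. The 10 windows are not separate sequences, so such counts cannot be read as independent matches. Those of Hsph1 overlap and hold the same matches, and Hspe1 shares its matches with a window of Hspd1. Of the 7 genes, Dnajb1 was the 1 with no pair motif in any window. The stretch between Hspd1 and Hspe1 held 3 overlapping pair motifs in 18 bases, which lie before both of these starts. The window of the other Hspd1 start, which lies beyond that of Hspe1, held none. The Hspb1 stretch held 2 separate pair motifs. Hspa1b and Hspa1a each held 1, and their 250 bases were 98.8% identical. A longer form of 3 units, GAANNTTC followed directly by NNGAA, was searched on both strands and contains both pair motifs. It was present in 4 of the 10 windows, of Hspd1, Hspe1 and Hsph1, and in 0.603% of all windows, and in Hsph1 it lay after the start, in bases not printed. These matches describe letters and not sites that a factor was shown to bind.

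The values are TPM, a level per transcript length relative to the library total, so that genes can be set side by side within a library. They carry no depth, and no counting interval can be given. Columns summed to between 969834 and 975945 TPM in A10KO and between 976570 and 985045 TPM in WT. The target gene Anxa10 was listed at 0 TPM in all 6 libraries, so it gives no check of the labels. All 7 melanocyte markers (Mitf, Dct, Tyrp1, Tyr, Pmel, Mlana and Sox10) were present, with sums of 9410 to 11254 TPM in A10KO and 8913 to 10016 TPM in WT. Under 1 TPM in every library were 5 of 5 keratinocyte, 4 of 5 leukocyte, 3 of 4 endothelial and 3 of 5 fibroblast markers. The others were Lyz2, at no more than 1.14 TPM, Col1a2, at no more than 1.12 TPM, and Vwf and Col1a1, whose values stand beside those of Hspb1. The share of TPM from the mitochondrial genome was 7.93%, 14.7% and 7.37% in A10KO replicates 1, 13 and 14, against 6.56%, 6.48% and 6.32% in WT replicates 1, 2 and 3.

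No heat shock gene differed between A10KO and WT past the threshold, and Hspb1 came nearest. Of the 10 genes, 9 reached at least 1 TPM in at least 3 libraries and entered the test, and Hspa1a did not. In limma on log2(TPM + 1), with Benjamini-Hochberg adjustment over 12068 genes, 0 of 9 had an adjusted p under 0.05, whereas 0.0414% of all tested genes did, 0.0166% higher and 0.0249% lower in A10KO. At an unadjusted p under 0.05 there was 1 of 9, Hspb1, beside 8.83% of all tested genes. The levels of the groups were fully apart for 1 gene that was lower in A10KO, Hspb1, beside 11.5% of all tested genes, and for 1 that was higher, Hsph1, beside 5.61%. The median log2 change over the 9 was 0.02, and over all tested genes it was -0.04. With A10KO replicate 1 left out, or with array quality weights, Hspb1 was the 1 heat shock gene that passed.

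**Figure D1:**
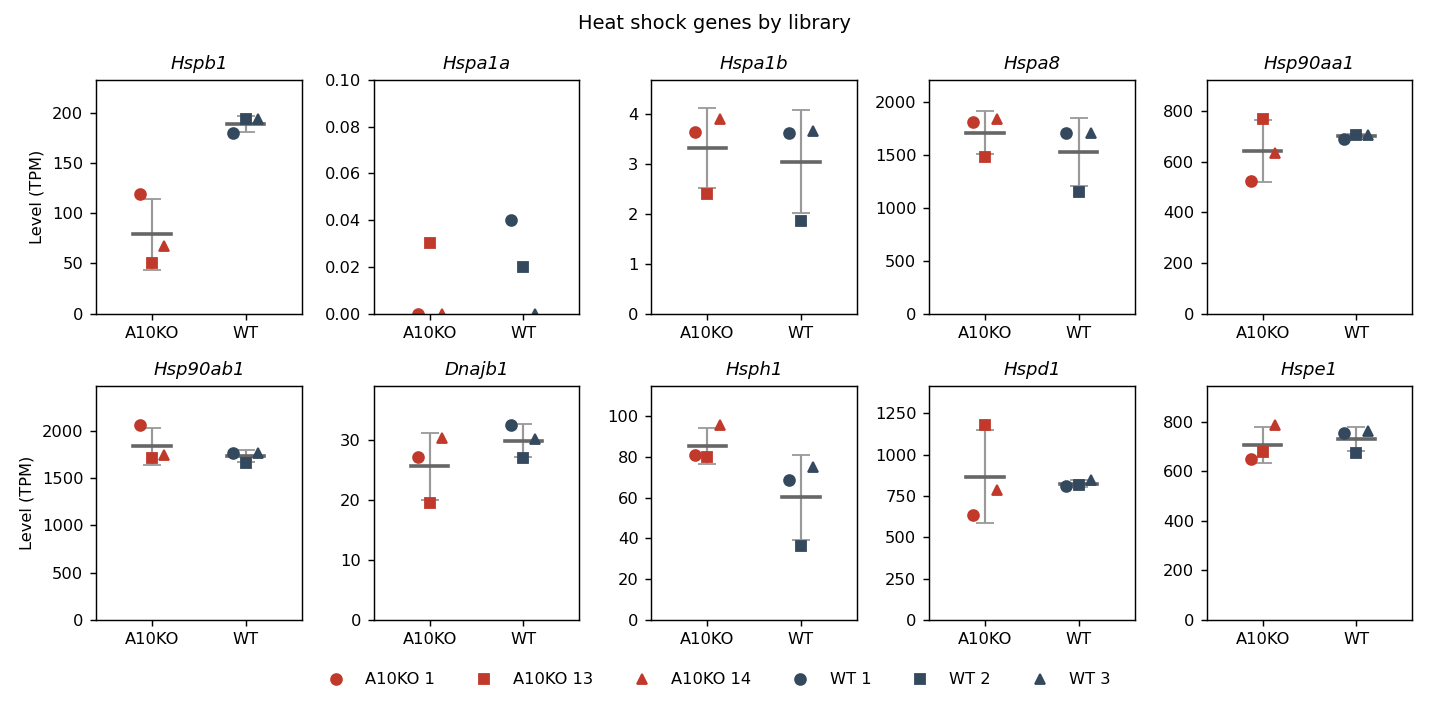
Level in TPM (vertical axes, from 0) of the 10 heat shock genes in the 3 A10KO libraries (red, left) and the 3 WT libraries (dark, right); grey bars are the group mean with its SD, not drawn for Hspa1a, which was listed at or near 0. The A10KO points of Hspb1 lie between 50.2 and 119 TPM, all below the WT points between 180 and 194 TPM, and of the other tested genes only Hsph1 has no overlap.

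Summed over the 10 genes, the share of TPM was 0.606%, 0.615% and 0.615% in A10KO replicates 1, 13 and 14, against 0.615%, 0.539% and 0.619% in WT replicates 1, 2 and 3. The total was thus alike in 5 libraries and lower in WT replicate 2. The order of the levels in WT was Hsp90ab1, Hspa8, Hspd1, Hspe1, Hsp90aa1, Hspb1, Hsph1, Dnajb1, Hspa1b and Hspa1a. Among neighbours in that order, Hsp90ab1 and Hspa8 overlapped over the WT libraries, as did Hspe1 and Hsp90aa1, and the other neighbours did not. In A10KO the levels of Hspd1, Hspe1 and Hsp90aa1 overlapped, as did those of Hsp90ab1 and Hspa8 and those of Hsph1 and Hspb1. By mean level Hsp90ab1 stood at place 85 and Hspa8 at place 94 among the 12068 tested genes.

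Hspb1 (ENSMUSG00000004951, GRCm38 chromosome 5, 135887919 to 135889563, protein coding) encodes HSP27, also called HSP25 in mouse, a small heat shock protein that binds unfolded chains and actin filaments. It stood at 118.72, 50.19 and 67.79 TPM in A10KO replicates 1, 13 and 14, against 180.17, 194.12 and 193.51 TPM in WT replicates 1, 2 and 3. Every A10KO library was below every WT library, and replicate 1 was the highest of the A10KO libraries. The means were 78.9 ± 35.6 TPM in A10KO and 189 ± 7.88 TPM in WT (SD, n = 3 each), a ratio of means of 0.417. The log2 change was -1.34 (SE 0.28, 95% interval -2.00 to -0.69, limma adjusted p = 0.247). By unadjusted p it was at place 79 among all tested genes. Levels in bulk RNA do not tell fewer cells with a transcript from less of it per cell.

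The Hspb1 call turned on single libraries and on weighting. Without A10KO replicate 1 its log2 change was -1.68 (limma adjusted p = 0.0474), and with array quality weights it was -1.33 (adjusted p = 0.0444). Without any 1 of the other libraries the adjusted p lay between 0.218 and 0.909, and over all 17 alternatives the log2 change stayed between -1.68 and -1.07. Of the 75-base stretches of its transcript, 47.3% also occur in the pseudogene Hsp25-ps1, which was listed at 0 TPM in every library. Read length is not given in the sources used here.

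The related small heat shock genes had log2 changes below 0 in 6 of 6 tested, beside 6813 of all 12068 tested genes. None passed the threshold, beside 0.0414% of all tested genes. The median of the 6 was -0.31, beside -0.04 over all genes. By library, their median difference from the WT mean was 0.05, -0.38 and -0.70 in A10KO replicates 1, 13 and 14. Replicate 1 thus did not share the direction. Cryab (619.1 TPM), Hspb6 (42.93 TPM) and Hspb7 (5.28 TPM) were above every WT library there, and Hspb2, Hspb8 and Hspb11 were below every WT library. With A10KO replicate 1, 13 or 14 left out in turn, this median was -0.57, -0.15 and -0.11. Cryab, which encodes alpha-B crystallin and had the highest level of the list, stood at 521 ± 85.5 TPM in A10KO and 543 ± 50.4 TPM in WT (SD, n = 3 each), a log2 change of -0.07 (limma adjusted p = 0.919). Hspb2, its neighbour on chromosome 9, stood at 85.9 ± 29.6 TPM in A10KO and 112 ± 2.18 TPM in WT, with A10KO replicate 13 the lowest at 55.69 TPM. Hspb11, known as a subunit of intraflagellar transport rather than a chaperone, had the largest difference of the list and stood at 16.9 ± 4.81 TPM in A10KO and 26.3 ± 7.92 TPM in WT, a log2 change of -0.61 (SE 0.27, limma adjusted p = 0.568). The ratio of Hspb1 to Cryab within a library was 0.192, 0.109 and 0.140 in A10KO replicates 1, 13 and 14, against 0.316, 0.401 and 0.338 in WT replicates 1, 2 and 3. Beside Hspb1, 10 of 12 tested immediate early genes also had log2 changes below 0, as did 6813 of all 12068 tested genes. Their median was -0.49 and none passed the threshold, beside 0.0414% of all tested genes. The part of the immediate early genes in the result was not tested. The endothelial marker Vwf stood at 1.96, 0.59 and 6.20 TPM in A10KO replicates 1, 13 and 14, against 5.96, 7.08 and 8.62 TPM in WT replicates 1, 2 and 3 (log2 change -1.33, limma adjusted p = 0.521). The fibroblast marker Col1a1 stood at 0.62, 1.60 and 0.32 TPM in A10KO replicates 1, 13 and 14, against 1.93, 2.42 and 2.46 TPM in WT replicates 1, 2 and 3 (log2 change -0.88, limma adjusted p = 0.471). Every A10KO library was below every WT library for Col1a1, and the groups overlapped for Vwf. Of the other endothelial markers, Pecam1 reached 0.59 TPM in WT replicate 2, and Cdh5 and Kdr were at no more than 0.02 TPM. Of the other fibroblast markers, Col1a2 reached 1.12 TPM and Pdgfra 0.41 TPM in A10KO replicate 13, and Dcn 0.16 TPM in A10KO replicate 14. Lum was at 0 in every library, and the part of such cells in the Hspb1 values was not tested.

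Of the 3 HSP70 genes among the 10, the constitutive form had by far the highest level. Hspa8 (ENSMUSG00000015656, chromosome 9, 40800984 to 40810087), the constitutive cytosolic HSP70, stood at 1808.71, 1477.14 and 1839.87 TPM in A10KO replicates 1, 13 and 14, against 1709.56, 1150.53 and 1704.99 TPM in WT replicates 1, 2 and 3. The groups overlapped, and WT replicate 2 was the lowest of all 6 libraries. The log2 change was 0.18 (SE 0.20, 95% interval -0.28 to 0.64, limma adjusted p = 0.809), and without WT replicate 2 it was -0.01.

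The stress-inducible pair was close to silent. Hspa1b (ENSMUSG00000090877, chromosome 17, 34956436 to 34959238) stood at 3.65, 2.41 and 3.91 TPM in A10KO replicates 1, 13 and 14, against 3.62, 1.85 and 3.67 TPM in WT replicates 1, 2 and 3. Replicate 13 was the lowest A10KO library and replicate 2 the lowest WT library, as for Hspa8. Its log2 change was 0.11 (95% interval -0.53 to 0.76, limma adjusted p = 0.924), and -0.12 without WT replicate 2. Hspa1a (ENSMUSG00000091971, chromosome 17, 34969190 to 34972156) was listed at 0, 0.03 and 0 TPM in A10KO replicates 1, 13 and 14, against 0.04, 0.02 and 0 TPM in WT replicates 1, 2 and 3.

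The split between these paralogs is uncertain. Of the 75-base stretches of the Hspa1a transcript, 52.7% also occur in that of Hspa1b, and how the submitters' tools divided shared reads is not given in the sources used here. Their sum does not depend on the division between them. Hspa8 was 496, 605 and 471 times that sum in A10KO replicates 1, 13 and 14, against 467, 615 and 465 times in WT replicates 1, 2 and 3. Hspa8 itself shares 68.0% of such stretches with 8 other genes, of which the closest, Gm15459, was listed at no more than 1.29 TPM.

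Of the 6 other tested HSP70 and HSP110 genes, none passed and 3 had log2 changes above 0. Over all 12068 tested genes, 0.0414% passed and 5254 were above 0. Hspa4, a cytosolic HSP110, stood at 151 ± 16.3 TPM in A10KO and 139 ± 10.6 TPM in WT (SD, n = 3 each), and Hspa14, a ribosome-associated HSP70, at 72.3 ± 16.8 TPM in A10KO and 81.2 ± 2.82 TPM in WT. Hspa12b had the largest difference, at 4.50 ± 0.508 TPM in A10KO and 3.13 ± 0.440 TPM in WT, a log2 change of 0.41 (SE 0.20, limma adjusted p = 0.588).

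Of the partners of HSP70, Dnajb1 overlapped between the groups and Hsph1 did not, and neither passed the threshold. Dnajb1 (ENSMUSG00000005483, chromosome 8, 83608193 to 83612653), a J-domain protein that delivers substrates to HSP70, stood at 27.11, 19.39 and 30.24 TPM in A10KO replicates 1, 13 and 14, against 32.49, 27.03 and 30.11 TPM in WT replicates 1, 2 and 3. The groups overlapped, and A10KO replicate 13 was the lowest library. Its log2 change was -0.24 (SE 0.19, 95% interval -0.67 to 0.20, limma adjusted p = 0.758). Hsph1 (ENSMUSG00000029657, chromosome 5, 149614287 to 149636376) encodes HSP110, an exchange factor for HSP70, and stood at 81.03, 79.74 and 95.65 TPM in A10KO replicates 1, 13 and 14, against 68.79, 36.33 and 75.13 TPM in WT replicates 1, 2 and 3. Every A10KO library was above every WT library, and WT replicate 2 stood far below the other WT libraries. The log2 change was 0.56 (SE 0.27, 95% interval -0.06 to 1.18, limma adjusted p = 0.587), and without WT replicate 2 it was 0.24 (adjusted p = 0.938).

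Hspb1 and Hsph1 were apart between the groups in opposite directions. Their ratio was therefore bound to be apart as well and adds no further evidence. The ratio of Hspb1 to Hsph1 was 1.47, 0.629 and 0.709 in A10KO replicates 1, 13 and 14, against 2.62, 5.34 and 2.58 in WT replicates 1, 2 and 3. The high value in WT replicate 2 goes with Hsph1 at 36.33 TPM there. Hspb1 thus exceeded Hsph1 in every WT library and in A10KO replicate 1, and not in A10KO replicates 13 and 14.

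**Figure D2:**
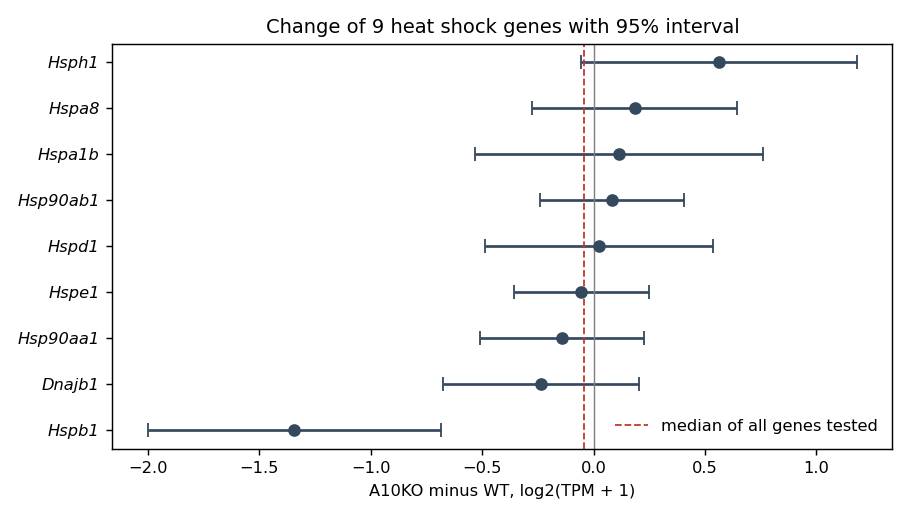
Difference between A10KO and WT on the log2(TPM + 1) scale (horizontal axis) for the 9 heat shock genes tested, each with its 95% interval from limma; the dashed line is the median of all tested genes, -0.04. The interval of Hspb1, -2.00 to -0.69, lies wholly below 0 before adjustment, and the other 8 intervals include 0.

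J-domain proteins and exchange factors as lists stayed near the median of all genes, and none of their members passed the threshold. Of all 12068 tested genes, 0.0414% passed and 5254 were above 0. Of 15 tested J-domain genes 9 were above 0 (median 0.08), with Dnaja1 at 225 ± 20.6 TPM in A10KO and 213 ± 33.0 TPM in WT, Dnajc7 at 147 ± 18.5 TPM in A10KO and 131 ± 13.2 TPM in WT (SD, n = 3 each). The largest difference was that of Dnajb14, a log2 change of 0.38 (limma adjusted p = 0.737). Of 8 exchange factors 3 were above 0 (median -0.04), with Bag1 at 191 ± 23.4 TPM in A10KO and 195 ± 10.5 TPM in WT and Bag6 at 158 ± 22.0 TPM in A10KO and 157 ± 1.53 TPM in WT. Bag3, which links HSP70 to autophagy and is induced by stress, had the largest difference of that list, at 27.5 ± 5.94 TPM in A10KO and 34.1 ± 1.82 TPM in WT (log2 change -0.32, limma adjusted p = 0.655).

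Hsp90ab1 (ENSMUSG00000023944, chromosome 17, 45567775 to 45573271), the constitutive HSP90 beta, had the highest mean level of the 10 and stood at 2064.48, 1708.95 and 1743.81 TPM in A10KO replicates 1, 13 and 14, against 1767.60, 1656.57 and 1767.27 TPM in WT replicates 1, 2 and 3. The groups overlapped, with A10KO replicate 1 the highest. The log2 change was 0.08 (SE 0.14, 95% interval -0.24 to 0.41, limma adjusted p = 0.879), and without A10KO replicate 1 it was 0.00. Hsp90aa1 (ENSMUSG00000021270, chromosome 12, 110690605 to 110702728), the more inducible HSP90 alpha, stood at 525.13, 770.47 and 635.75 TPM in A10KO replicates 1, 13 and 14, against 690.86, 707.49 and 706.48 TPM in WT replicates 1, 2 and 3. The WT libraries lay close together, and the A10KO libraries lay on both sides of them. The log2 change was -0.14 (SE 0.16, 95% interval -0.51 to 0.23, limma adjusted p = 0.816).

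The balance between the HSP90 forms differed more among the A10KO libraries than among the WT libraries. Hsp90ab1 was 3.93, 2.22 and 2.74 times Hsp90aa1 in A10KO replicates 1, 13 and 14, against 2.56, 2.34 and 2.50 times in WT replicates 1, 2 and 3. Of the 75-base stretches of Hsp90aa1, 53.1% occur in 3 other genes, the closest being Gm12346 at no more than 0.61 TPM, while for Hsp90ab1 the share was 0.736%.

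None of 17 tested HSP90 co-chaperones passed the threshold, and 8 were above 0 (median -0.01). Among all 12068 tested genes, 0.0414% passed and 5254 were above 0. Fkbp4, an immunophilin that binds HSP90, stood at 756 ± 143 TPM in A10KO and 826 ± 75.8 TPM in WT (SD, n = 3 each), and Cdc37, which brings kinases to HSP90, at 341 ± 12.2 TPM in A10KO and 329 ± 17.2 TPM in WT. Chordc1 had the largest difference, and its groups were apart, at 18.63, 44.81 and 17.93 TPM in A10KO replicates 1, 13 and 14, against 12.08, 16.91 and 16.82 TPM in WT replicates 1, 2 and 3. Replicate 13 carried most of that difference (log2 change 0.68, SE 0.35, limma adjusted p = 0.630). Sugt1 was the 1 co-chaperone with an unadjusted p under 0.05 and was named after its values were seen, at 49.9 ± 6.95 TPM in A10KO and 62.3 ± 2.82 TPM in WT (adjusted p = 0.564).

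The mitochondrial pair parted in 1 library. Hspd1 (ENSMUSG00000025980, chromosome 1, 55077835 to 55088243), which encodes HSP60, stood at 636.73, 1180.12 and 784.50 TPM in A10KO replicates 1, 13 and 14, against 810.16, 815.52 and 848.41 TPM in WT replicates 1, 2 and 3. Replicate 13 was the highest and replicate 1 the lowest of the 6 libraries. The log2 change was 0.02 (SE 0.22, 95% interval -0.49 to 0.54, limma adjusted p = 0.981), and without A10KO replicate 13 it was -0.22. Hspe1 (ENSMUSG00000073676, chromosome 1, 55088132 to 55091307), which encodes the lid HSP10, stood at 648.76, 678.24 and 787.46 TPM in A10KO replicates 1, 13 and 14, against 755.69, 674.58 and 763.72 TPM in WT replicates 1, 2 and 3. The groups overlapped, and replicate 13 did not stand out (log2 change -0.06, 95% interval -0.36 to 0.25, limma adjusted p = 0.919).

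The ratio of these neighbouring genes was not constant, although the stretch printed above lies before a start of each. Hspd1 was 0.981, 1.74 and 0.996 times Hspe1 in A10KO replicates 1, 13 and 14, against 1.07, 1.21 and 1.11 times in WT replicates 1, 2 and 3. The gene spans overlap by 112 bases on opposite strands, and the strand setting is not given in the sources used here. Of the 75-base stretches of Hspd1, 33.7% occur in 4 other genes, the closest being Hspd1-ps3 at no more than 0.20 TPM.

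Over the 16 tested genes of the mitochondrial list, 7 were highest and 5 lowest in replicate 13 among the A10KO libraries, 43.8% and 31.2% of the list, beside 44.6% and 30.9% of all tested genes. The list as a whole thus lay near the background in that library. Hspa9, the mitochondrial HSP70, stood at 321.37, 491.22 and 260.87 TPM in A10KO replicates 1, 13 and 14, against 304.70, 366.73 and 312.48 TPM in WT replicates 1, 2 and 3. Trap1, the mitochondrial HSP90, reached 105.71 TPM and Dnaja3, a mitochondrial J-domain protein, 43.37 TPM in that library, each the highest of the 6. Grpel1, the matrix exchange factor, was at 36.37 TPM there, the lowest of the A10KO libraries. Mitochondrially encoded transcripts, at 14.7% of TPM, were also highest in replicate 13, with all 10 tested ones at their A10KO maximum there. That share rests largely on 1 short gene, mt-Atp8, at 74021 of 140252 mitochondrial TPM in replicate 13. In every library mt-Atp6 was listed at 0 and mt-Co3 at no more than 0.29 TPM. The part of mitochondrially encoded transcripts in the result was not tested. None of the 16 tested genes of the mitochondrial list passed (median -0.04), beside 0.0414% of all tested genes. The prohibitins Phb2 and Phb had the highest means of the list. Phb2 stood at 725 ± 96.1 TPM in A10KO and 746 ± 68.3 TPM in WT, and Phb at 383 ± 56.6 TPM in A10KO and 355 ± 25.1 TPM in WT (SD, n = 3 each). The largest difference was that of Hscb, a J-domain protein of iron-sulphur cluster assembly (log2 change -0.34, SE 0.14, limma adjusted p = 0.564).

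**Figure D3:**
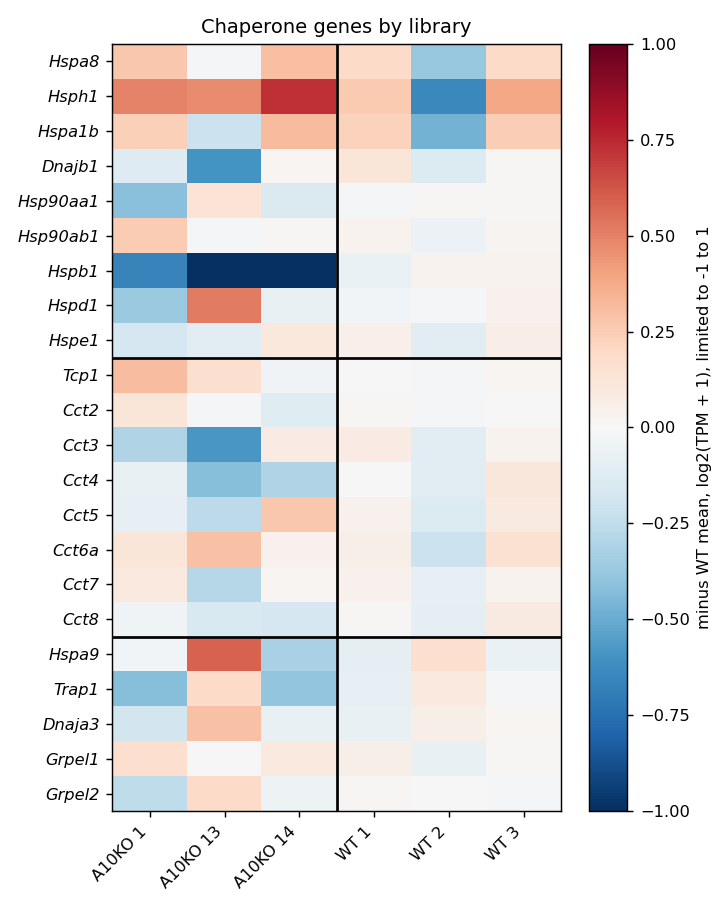
Difference of each library from the WT mean on the log2(TPM + 1) scale (colour, limited to -1 to 1) for 9 heat shock genes, the 8 TRiC subunits and 5 mitochondrial chaperones, with the A10KO libraries left of the line and the WT libraries right of it. Hspb1 is blue in the 3 A10KO libraries, Hspa8, Hsph1 and Hspa1b are blue in WT replicate 2, and Hspd1 and Hspa9 are red in A10KO replicate 13.

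Some members lay near the median of their chromosome in A10KO libraries, and others did not. Each library's median difference from the WT mean was taken per chromosome, over tested genes that averaged 5 TPM or more. On chromosome 12 (345 genes) that median was -0.44, 0.13 and 0.01 in A10KO replicates 1, 13 and 14, and Hsp90aa1 differed from its WT mean by -0.42, 0.13 and -0.14. On chromosome 1 (504 genes) the medians were -0.26, 0.17 and -0.02, against -0.37, 0.52 and -0.07 for Hspd1 and -0.17, -0.11 and 0.11 for Hspe1. On chromosome 5 (612 genes) the medians were -0.13, 0.11 and 0.06, whereas Hspb1 differed by -0.67, -1.89 and -1.47 and Hsph1 by 0.49, 0.47 and 0.73. Dnajb1 differed by -0.13, -0.59 and 0.02, beside medians of -0.14, 0.01 and -0.0008 on chromosome 8. Hspa8 differed by 0.27, -0.02 and 0.30, beside medians of 0.16, 0.13 and -0.02. Hspa1b differed by 0.24, -0.21 and 0.32, beside medians of 0.16, -0.07 and -0.02. Hsp90ab1 differed by 0.26, -0.02 and 0.01, beside medians of 0.16, -0.07 and -0.02. Hsp90aa1 thus lay close to its chromosome median in A10KO replicates 1 and 13 and below it in replicate 14. Dnajb1 lay close to its own in replicates 1 and 14 and below it in replicate 13. Hsp90ab1 lay within 0.10 of its own in all 3 A10KO libraries. Hspb1 and Hsph1 lay far from theirs in all 3. Whether chromosome-wide differences take part in these levels was not tested. With chromosome medians subtracted, the log2 change of Hspb1 was -1.36 (limma adjusted p = 0.319) and that of Hsph1 was 0.55 (adjusted p = 0.604).

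**Figure D4:**
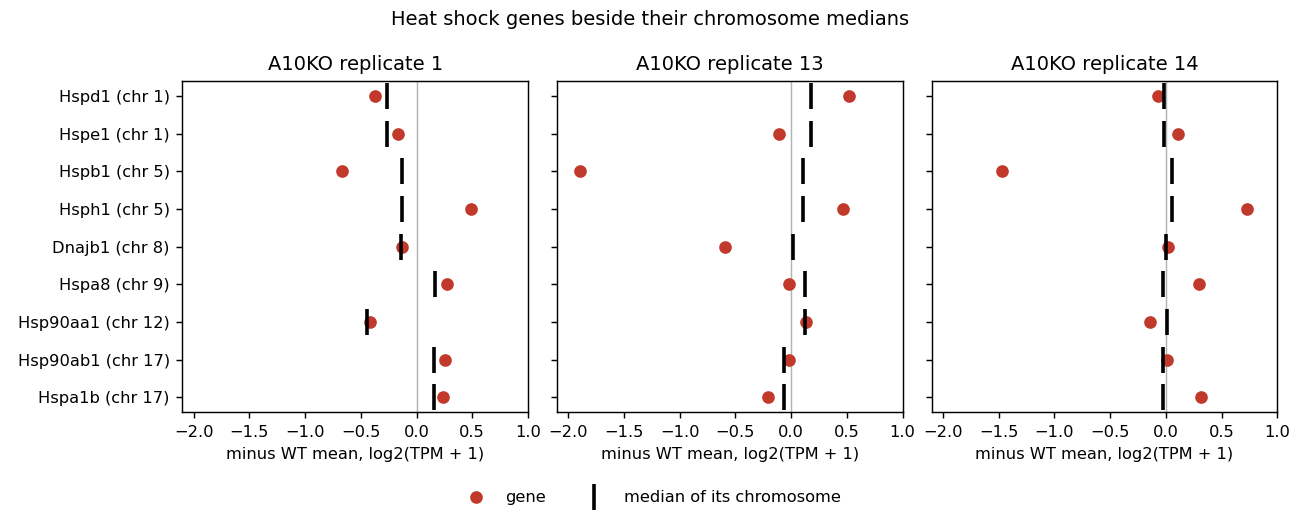
Difference from the WT mean on the log2(TPM + 1) scale (horizontal axis) for each heat shock gene (red points) and for the median of its chromosome (black ticks), in each of the 3 A10KO libraries. Hsp90aa1 sits on or near its tick in replicates 1 and 13, at -0.42 against -0.44 in replicate 1. In replicate 14 it lies left of its tick, at -0.14 against 0.01. Dnajb1 sits on or near its tick in replicates 1 and 14 and left of it in replicate 13. Hspb1 lies far left of its tick in every panel.

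In each group 1 library was the lowest for most of the tested heat shock genes. Within A10KO that was replicate 13, lowest for 6 of the 9, beside 30.9% of all tested genes. Within WT it was replicate 2, also lowest for 6 of the 9, beside 29.7% of all tested genes. WT replicate 2 was the lowest WT library for 8 of 8 subunits of TRiC, the ring chaperonin of the cytosol that folds actin and tubulin, and for 10 of 17 HSP90 co-chaperones. Other lists were mixed in WT replicate 2. Lowest there were 7 of 15 J-domain genes, 4 of 8 exchange factors and 3 of 6 prefoldin subunits. Also lowest were 5 of 16 mitochondrial genes and 2 of 6 small heat shock genes. Of those lists 7, 2 and 1 genes were highest there, as were 9 mitochondrial and 4 small heat shock genes. Of 4 heat shock factors 1 was lowest and 2 were highest there. Of 6 other HSP70 and HSP110 genes 2 were lowest and 3 highest. Over the 9 lists together, 42 of 86 genes were lowest and 33 highest in that library. Of all tested genes 53.0% were highest there, as were 10 of 12 immediate early genes. These counts describe single libraries and carry no test. Across the groups none of the TRiC subunits passed (median -0.04), beside 0.0414% of all tested genes. Cct7 stood at 674 ± 89.9 TPM in A10KO and 697 ± 33.8 TPM in WT, Cct2 at 384 ± 32.5 TPM in A10KO and 385 ± 3.74 TPM in WT (SD, n = 3 each), and Cct3, with the largest difference, had a log2 change of -0.27 (limma adjusted p = 0.719).

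None of the regulators of the response passed the threshold, which 0.0414% of all tested genes passed. Hsf1, the main factor of the heat shock response, stood at 46.9 ± 7.17 TPM in A10KO and 45.1 ± 4.26 TPM in WT (SD, n = 3 each), a log2 change of 0.05 (SE 0.15, limma adjusted p = 0.943). Hsbp1, whose product binds heat shock factor 1, stood at 109 ± 6.60 TPM in A10KO and 115 ± 3.57 TPM in WT, and Hsf2 had the largest difference of the list, 0.26 (SE 0.31, adjusted p = 0.830). The list had 4 tested genes, with a median of 0.11. Nor did any of 6 subunits of prefoldin, which hands chains to TRiC, pass (median -0.08), among them Pfdn5 at 194 ± 34.4 TPM in A10KO and 209 ± 18.8 TPM in WT and Pfdn2 at 153 ± 27.8 TPM in A10KO and 171 ± 4.84 TPM in WT. Pfdn2 also had the largest difference of its list, -0.17 (adjusted p = 0.772).

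**Figure D5:**
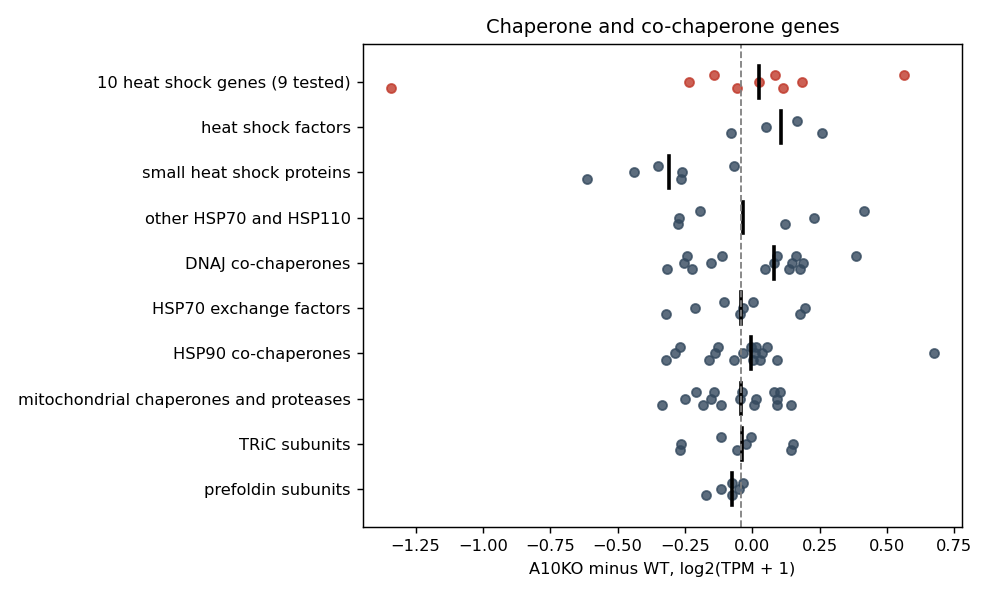
Difference between A10KO and WT on the log2(TPM + 1) scale (horizontal axis) for every tested gene of the 10 heat shock genes and of 9 further chaperone lists; each point is a gene, black bars are list medians and the dashed line is the median of all tested genes, -0.04. Hspb1 at -1.34 lies outside the range of the 86 other chaperone genes, which runs from -0.61 to 0.68.

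Over these 9 lists together, 86 of 92 genes were tested. Of these, 0 had a limma adjusted p under 0.05, beside 0.0414% of all tested genes. With a share that low, 0 called genes does not show that a list is unchanged. At an unadjusted p under 0.05 there was 1, beside 8.83% of all tested genes. The median log2 change of the 86 was -0.05, beside -0.04 over all tested genes. Below 0 were 51 and above 0 were 35, beside 6813 and 5254 of all 12068 tested genes. The groups were apart for 10 genes that were lower in A10KO and 2 that were higher, 11.6% and 2.33% of those tested, beside 11.5% and 5.61% of all tested genes.

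For the 8 members that averaged 5 TPM or more, the tested genes with the most similar course over the 6 libraries were found by the root mean square difference of centred log2 values. Of the 24 nearest genes, 3 per member, 1 was in a chaperone list. That was Cdc37l1, near Hspd1 at a difference of 0.04, behind Ndufa10 and Kif3b. The 9 chaperone lists hold 86 of all 12068 tested genes, and 1 of 24 is not below that share. Hspa8 was nearest to Timm9 (0.03), Hsp90aa1 to Net1 (0.03) and Hspe1 to Ndufb3 (0.02). Hspb1 was nearest to Anxa1, Hist1h2bc and Xaf1, each at 0.18 beside a spread of 0.76 in its own values, and Hsph1 to Ccdc86 at 0.13 beside 0.44. Likeness over 6 libraries says nothing of a common control.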

How the data were processed

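The labels' protocols name Trizol for RNA extraction, followed by DNase I, in all 3 A10KO and 3 WT libraries. The tools fastp, HISAT and RSEM and the build GRCm38.p5 are listed in the submitters' processing notes, without version, setting or role. The deposited values are TPM, as read from their decimals and column sums, although the table is named as raw counts. Depth is therefore unknown. Each of the 6 sample tables was identical to its column of the joint table. A gene entered the test if it reached 1 TPM in 3 or more libraries. It was tested with limma 3.58.1 in R 4.3.3 with a mean-variance trend on log2(TPM + 1), which understates the change of low genes. Adjusted p-values are Benjamini-Hochberg values over all tested genes, with a threshold of 0.05. The fit was tested on simulated data. Coordinates come from GENCODE M21 on GRCm38, matched by identifier for 51633 genes, and promoters from RefSeq on GRCm38.p6, a later patch of the same build.

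The members and lists were chosen with earlier results of these data known. Named genes were every member, the 2 genes with the highest mean and the 1 with the largest change of each chaperone list, and the nearest profiles. Others were named to describe single libraries or extremes, after their values were seen. Alternatives were pseudocount, filter, scaling, model, chromosome medians, summed paralogs and leaving out each library with the tested genes kept.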

Additional observations from a re-analysis of the deposited data

How the results depend on the processing

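No paired analysis was possible because the labels pair no A10KO library with a WT library. The count of called genes, 5 in all, was 3 under quantile normalization, 25 with array quality weights and 2 to 8 as single libraries were left out. The count of called heat shock genes, 0, was 1 with array quality weights and 0 to 1 as single libraries were left out. In both cases it was Hspb1, which passed without A10KO replicate 1 and not without any other single library. The median of the heat shock genes, 0.02, lay between -0.113 and 0.0448 as single libraries were left out, the lowest without WT replicate 2. The median of the other HSP70 and HSP110 genes, -0.04, was 0.0278 with no filter, -0.19 with a 5 TPM filter, 0.0323 under quantile normalization, 0.0207 with mitochondrial transcripts removed, 0.0775 with chromosome medians removed and -0.0782 to 0.0201 as single libraries were left out. Under the same omissions the median of HSP90 co-chaperones was -0.124 to 0.0176 and that of mitochondrial chaperones and proteases -0.1325 to -0.0077. Log2 changes of 5 heat shock genes turned sign. As single libraries were left out, Hspa1b lay between -0.1214 and 0.2757 and Hspa8 between -0.0059 and 0.2852, both lowest without WT replicate 2. Hsp90ab1 lay between -0.0028 and 0.1334, lowest without A10KO replicate 1, and Hspd1 between -0.222 and 0.2225, lowest without A10KO replicate 13. Hspe1 lay between -0.1383 and 0.0012, highest without A10KO replicate 1. Hspd1 was also at -0.0873 with array quality weights and Hspe1 at 0.0006 with mitochondrial transcripts removed. The cause was not tested. Depth is unknown, so zeros such as those of Hspa1a cannot be bounded.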
